A study of Mus musculus with 2 samples.

Results

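The keratins of the upper layers of skin and oral mucosa, 10 genes in all, were followed in the incisor of *Sox21* KO mice and their wild-type counterpart. The members were the skin keratins *Krt1*, *Krt2* and *Krt10*, the mucosal keratins *Krt4*, *Krt13*, *Krt76* and *Krt78*, and *Krt24*, *Krt77* and *Krt79*. Members were taken by gene name, in a set put together with earlier results of these data known, and all 14 probes that carry these 10 names were kept, of 55681 probes and 21243 genes with a reference symbol on the array. RNA from the incisor of wild-type mice (C57BL/6J by the study's methods) and of mice with a knockout of *Sox21* was labelled with Cy3 and hybridized to Agilent SurePrint G3 Mouse GE arrays, with 1 array per genotype. The sample labels give the age as day 0, whereas the study's methods give the day after. The number of animals behind each array and the genetic background of the *Sox21* KO mice were not given in the sources used here. The methods name no promoter or tissue to which the knockout is limited. The labels give the tissue only as incisor, whereas the series' design also speaks of ameloblasts. The study's methods name tooth germs, and its text describes the incisor tooth germ as holding both epithelium and mesenchyme. Markers of odontoblasts and mesenchyme were measured on both arrays, as given below. With 1 array per genotype, no difference has a replicate check and no test was run.

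Keratins are the intermediate filament proteins of epithelial cells, and a filament is built from pairs of a type I and a type II keratin. In stratified epithelium, cells of the basal layer carry *Krt5* with *Krt14*, and cells that move up change to another pair, which in skin is *Krt1* with *Krt10* and in the lining of the mouth and oesophagus *Krt4* with *Krt13*. *Krt2* joins late in the upper epidermis, and *Krt76* is known from the palate and gingiva. *Krt78*, *Krt79*, *Krt77* and *Krt24* are less studied keratins of stratified epithelium, of which *Krt79* is known from the hair follicle infundibulum and *Krt77* from the sweat duct. The ameloblast, the enamel-forming cell of the incisor in which *Sox21* is active, derives from oral epithelium but does not cornify.

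Values are the processed signal of a probe, from which the scanner software had removed background, divided by the 75th percentile of its array, 268 for wild-type and 276 for *Sox21* KO. The log2 ratio is *Sox21* KO minus wild-type, and the error given with it is that of the scanner's own error model for single spots, not a spread between animals. Repeat spots of the same probe, held for 274 probes, differed with a median SD of 0.086 in log2 ratio. A gene was measured when the scanner marked a probe of it as well above background in both genotypes, which held for 13802 genes. A gene marked so on 1 array has only a bound, taken against the lowest normalized signal marked well above background on the other array, 0.0796 for wild-type and 0.0706 for KO. Signals of different probes cannot be set against each other, so levels were compared between arrays and not between keratins.

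Of the 60-base probes, 7 are shown, because the findings rest on where and how these genes were read. Positions are counted from the first base of the transcript named in the files, and coordinates are mm9 as in the files, all on the minus strand. The pair of *Krt13* probes and the second *Krt10* probe are those whose ratios differed from another probe of the same gene. They share no run of more than 7 bases within a gene.

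Krt13, base 279, chr11:99982471-99982530: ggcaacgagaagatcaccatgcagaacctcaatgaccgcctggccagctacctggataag
Krt13, base 885, chr11:99980412-99980471: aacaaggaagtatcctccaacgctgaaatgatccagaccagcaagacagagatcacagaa
Krt10, base 1311, chr11:99247846-99247905: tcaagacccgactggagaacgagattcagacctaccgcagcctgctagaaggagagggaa

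The *Krt4* probe and both *Krt78* probes read the genes that were well above background on the KO array alone. The *Krt4* probe spans 579 bases of the genome, and the *Krt78* probes share the 50 bases in capitals, so they are close to a repeat of the same measurement. *Krt24* is shown as a member that was at least 2-fold higher.

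Krt4, base 1187, chr15:101750158-101750736: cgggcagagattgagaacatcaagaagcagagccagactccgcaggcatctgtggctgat
Krt78, base 3210, chr15:101776599-101776658: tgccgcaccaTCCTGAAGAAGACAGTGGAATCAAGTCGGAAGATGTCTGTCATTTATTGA
Krt78, base 3220, chr15:101776589-101776648: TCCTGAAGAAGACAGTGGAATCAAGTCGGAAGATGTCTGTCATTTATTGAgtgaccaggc
Krt24, base 785, chr11:99143994-99144053: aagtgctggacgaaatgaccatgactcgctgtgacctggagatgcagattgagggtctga

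Keratin genes resemble each other, and the overlap of the probes with those of other genes was therefore measured. For each of the 14 probes, the longest run of bases shared with a probe of another gene was 12 to 15 bases. Reading of the transcripts of other keratins by these probes was not tested, since no transcript sequences were used here.

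All 6 measured members were higher in *Sox21* KO incisor, where 52.4% of the 13802 measured genes were higher. *Krt1* and *Krt24* were at least 2-fold higher, 2 of 6 measured members against 0.739% of measured genes, and *Krt79* was just under 2-fold higher. None of the 6 was at least 2-fold lower, a size of difference seen in 0.667% of measured genes. *Krt4* and *Krt78* were well above background on the KO array alone and have bounds, given below. *Krt76* and *Krt77* were not well above background on either array. The median log2 ratio of the 6 measured members was 0.78, beside 0.01 over all measured genes. In bulk tissue, more cells of a type and more RNA per cell cannot be told apart. *Krt1*, *Krt10* and *Krt13* stand in a table of changed genes that the study drew from these arrays, so their direction here is not independent evidence. The entries of *Krt10* and *Krt13* in that table are those of their dimmer probes, whereas each gene is given here by its brighter probe. The same table lists *Krt6a*, *Krt6b*, *Krt15*, *Krt23*, *Krt32*, *Spink5*, *Dsg3*, *Lamb3* and *Amtn*, which are named below, so their directions are not independent either.

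**Figure D1:**
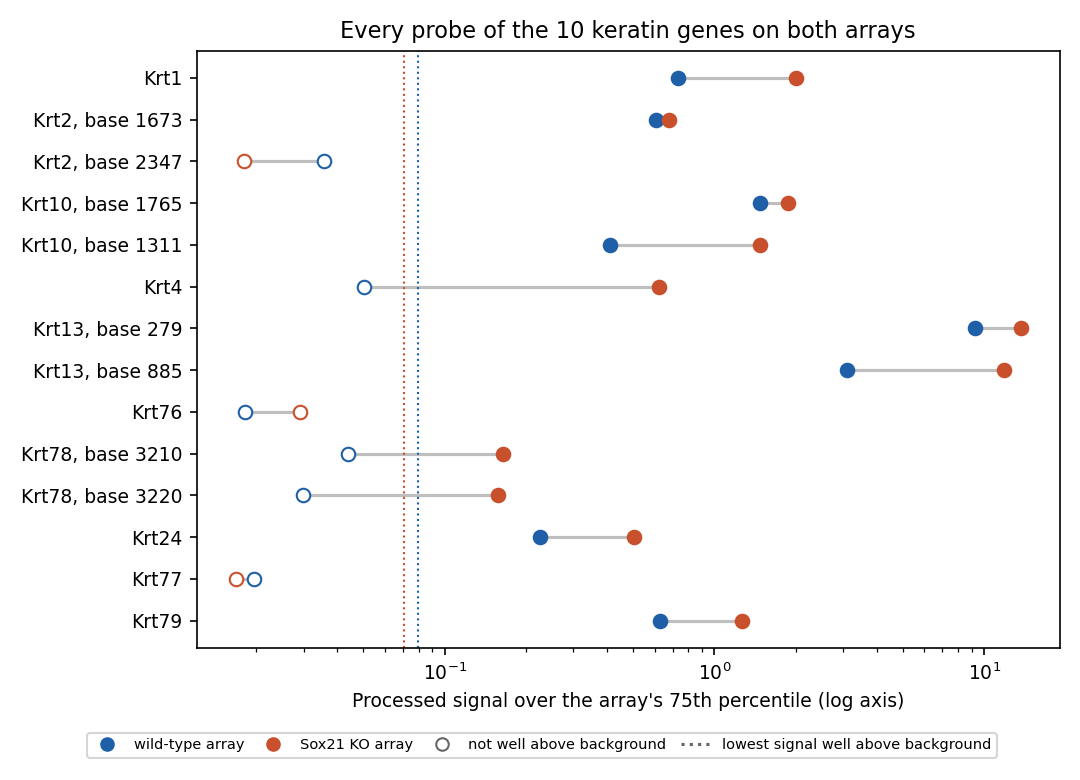
Processed signals divided by each array's 75th percentile, on a log axis, for all 14 probes of the 10 keratins in wild-type (blue) and Sox21 KO incisor (red), where open symbols are not well above background and dotted lines are the lowest signals marked so on each array. Of the 14 probes, 8 are filled on both arrays, and in each of these the KO value lies to the right of the wild-type value. Surrogate values, which have no order, are those of Krt77, of Krt76 in wild-type and of Krt2 at base 2347 in KO.

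*Krt1*, the type II keratin of the suprabasal epidermis, had a processed signal of 196 ± 20.4 (scanner error) in wild-type and of 553 ± 55.5 in *Sox21* KO incisor at its single probe (base 2137, chr15:101676107-101676166). Over the 75th percentile, these are 0.73 and 2.01. The KO value was higher by far more than the scanner error, with a log2 ratio of 1.45 ± 0.21. By log2 ratio, *Krt1* stood at rank 33 of the 13802 measured genes, the highest of the 6 members measured on both arrays when each is given by its brighter probe. It was at least 2-fold higher under all 12 alternative ways of processing, which gave log2 ratios from 1.16 to 1.55.

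*Krt10*, the type I partner of *Krt1*, has 2 probes, and both were higher in the KO incisor by different amounts. At the brighter probe (base 1765), the signal was 394 ± 39.7 in wild-type and 515 ± 51.7 in *Sox21* KO incisor, a log2 ratio of 0.34 ± 0.21. At the probe at base 1311, shown above, it was 110 ± 12.5 and 405 ± 40.9, a log2 ratio of 1.84 ± 0.22. The first lies under 2-fold, whereas the second exceeds the value of *Krt1*. The file places the brighter probe on only 21 bases, chr11:99246538-99246558.

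The 2 *Krt10* ratios were 1.5 apart on the log2 scale, and those of *Krt13* below were 1.38 apart. Among the 3562 genes with more than 1 measured probe the median gap was 0.17, and 1.24% of these genes had probes at least 2-fold apart. Both *Krt10* and *Krt13* belong to these, with the 10th and 13th largest gaps. The cause of these gaps was not tested. In both genes the dimmer probe on the wild-type array had the larger ratio, and each gene is given here by its brighter probe. By the dimmer probe, *Krt10* and *Krt13* would both be at least 2-fold higher, which makes 4 of 6 measured members, against 0.754% of measured genes given by their dimmest probe.

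*Krt2*, a type II keratin that appears in the upper spinous and granular epidermis, did not differ beyond the scanner error at its measured probe. Its brighter probe (base 1673, chr15:101642000-101642059) gave 162 ± 17.3 in wild-type and 186 ± 19.4 in *Sox21* KO incisor. The log2 ratio was 0.16 ± 0.21. The second *Krt2* probe (base 2347, chr15:101641326-101641385) stayed near background in both genotypes and was marked well above it in neither, with signals of 9.52 ± 5.72 and 4.96, the latter a surrogate value that the software puts in place of a dim signal and that has no order. Over the 3 epidermal members, *Krt1*, *Krt10* and *Krt2*, the median log2 ratio was 0.34 with the brighter *Krt10* probe and 1.45 with the dimmer one.

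**Figure D2:**
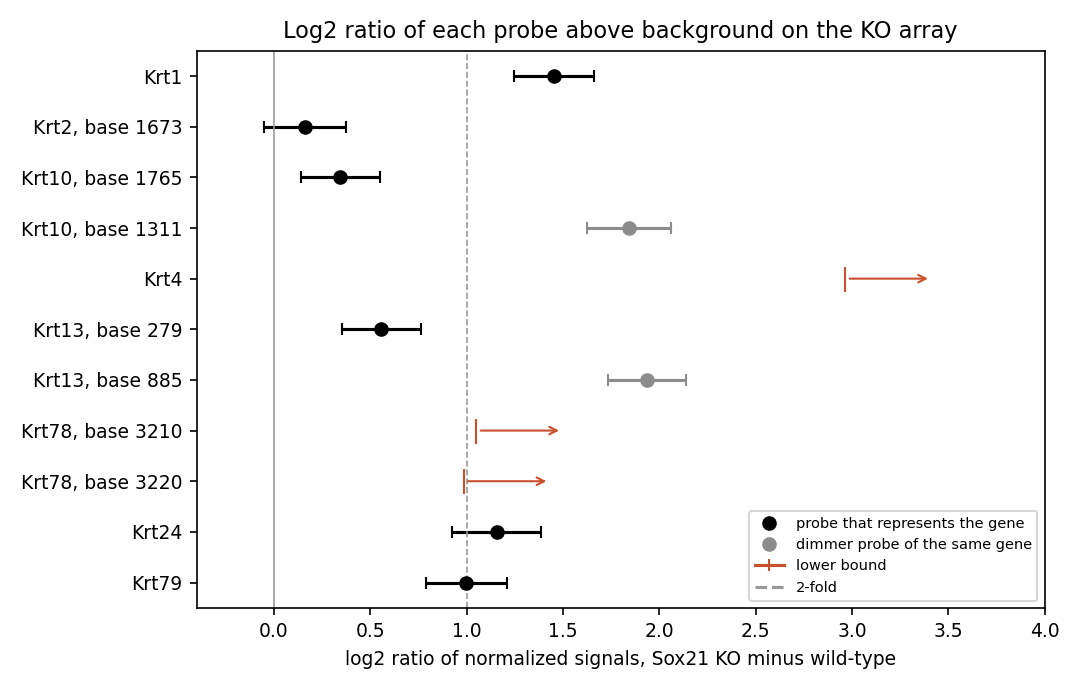
Log2 ratio of normalized signals (Sox21 KO minus wild-type) for each keratin probe well above background on the KO array, with bars of 1 scanner error, grey points for the dimmer probe of a gene, arrows for lower bounds and a dashed line at 2-fold. The 2 probes of Krt10 lie at 0.34 and 1.84 and those of Krt13 at 0.56 and 1.94, on either side of the dashed line.

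*Krt4*, the type II keratin of the suprabasal oral and oesophageal lining, was above background in *Sox21* KO incisor alone and has only a lower bound. Its single probe gave 13.4 ± 4.93 in wild-type incisor, a signal not well above background, and 171 ± 17.7 in *Sox21* KO incisor. On the wild-type array, 6 of 308 negative control spots were at or above the *Krt4* signal, and on the KO array 0 were. Before background was removed, the mean of the spot was 52.1 beside a local background of 25 in wild-type, and 222 beside 22 in *Sox21* KO. In *Sox21* KO incisor, *Krt4* was at least 7.81-fold higher, a bound of 2.97 on the log2 scale. The bound was 1.51 when background was corrected with the normexp model and 1.81 when none was removed, both still over 2-fold. Of the 7165 genes with no probe marked well above background in wild-type, 6.27% were marked so in *Sox21* KO.

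*Krt13*, the type I partner of *Krt4*, was measured on both arrays at both probes. At base 279 the signal was 2483 ± 248 in wild-type and 3760 ± 376 in *Sox21* KO incisor, a log2 ratio of 0.56 ± 0.20. At base 885 it was 832 ± 83.3 and 3276 ± 328, a log2 ratio of 1.94 ± 0.20. Both probes were higher in the KO incisor. They were 1.38 apart, as given with *Krt10*. On the wild-type array both *Krt13* probes were marked well above background and the *Krt4* probe was not, which is a difference between marks and not between levels.

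*Krt78*, a type II keratin of stratified epithelium, was dim. Its probe at base 3210 gave 11.7 ± 5.39 in wild-type and 45.4 ± 6.53 in *Sox21* KO incisor, and the probe at base 3220 gave 7.96 ± 5.90 and 43.4 ± 6.42. Both probes were well above background on the KO array alone, where they differed by less than the scanner error. On the wild-type array the scanner marked both as positive and significant only. *Krt78* was at least 2.07-fold higher. This bound depends on how background is treated, and was 0.31 on the log2 scale, under 2-fold, when background was corrected with the normexp model, and 0.41 when none was removed.

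*Krt76*, the type II keratin of the palate and gingiva, gave 4.87 in wild-type, a surrogate value, and 7.99 ± 4.63 in *Sox21* KO incisor at its single probe (base 1980, chr15:101715054-101715113). At or above the *Sox21* KO signal were 4 of 308 negative control spots. Neither value was well above background, so no ratio was taken and a difference in *Krt76* was not detectable here. Of the 4 mucosal members, *Krt13* alone was measured on both arrays, so no median over them is given for the values above.

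*Krt24*, a type I keratin of differentiated keratinocytes, gave 60.6 ± 7.41 in wild-type and 139 ± 14.4 in *Sox21* KO incisor. The KO signal was higher, with a log2 ratio of 1.16 ± 0.23, rank 70 of the measured genes. It was under 2-fold, with log2 ratios of 0.71 and 0.81, when background was corrected with the normexp model or not removed.

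*Krt79*, a type II keratin, gave 169 ± 17.7 in wild-type and 348 ± 35.1 in *Sox21* KO incisor at its single probe (base 2036, chr15:101759764-101759823). Its log2 ratio was 0.999 ± 0.21, rank 103, just below 2-fold. *Krt77*, a type II keratin, gave surrogate values of 5.25 and 4.64 at its single probe (base 1338, chr15:101691358-101691417). Neither was well above background, and no ratio was taken.

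The members lie in both keratin clusters of the mouse genome. *Krt10*, *Krt13* and *Krt24* belong to the type I cluster of chromosome 11, and the other 7 to the type II cluster of chromosome 15. By the order of RefSeq genes, *Krt2*, *Krt1*, *Krt77*, *Krt76*, *Krt4*, *Krt79* and *Krt78* follow each other on chromosome 15 with no other keratin between them. Within this run of 7 genes, 3 were measured and higher, 2 were well above background in *Sox21* KO alone and 2 in neither genotype. The next keratins on either side had log2 ratios of -0.12 (*Krt73*, a keratin of the inner root sheath of hair) and 0.25 (*Krt8*, a keratin of simple epithelium).

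**Figure D3:**
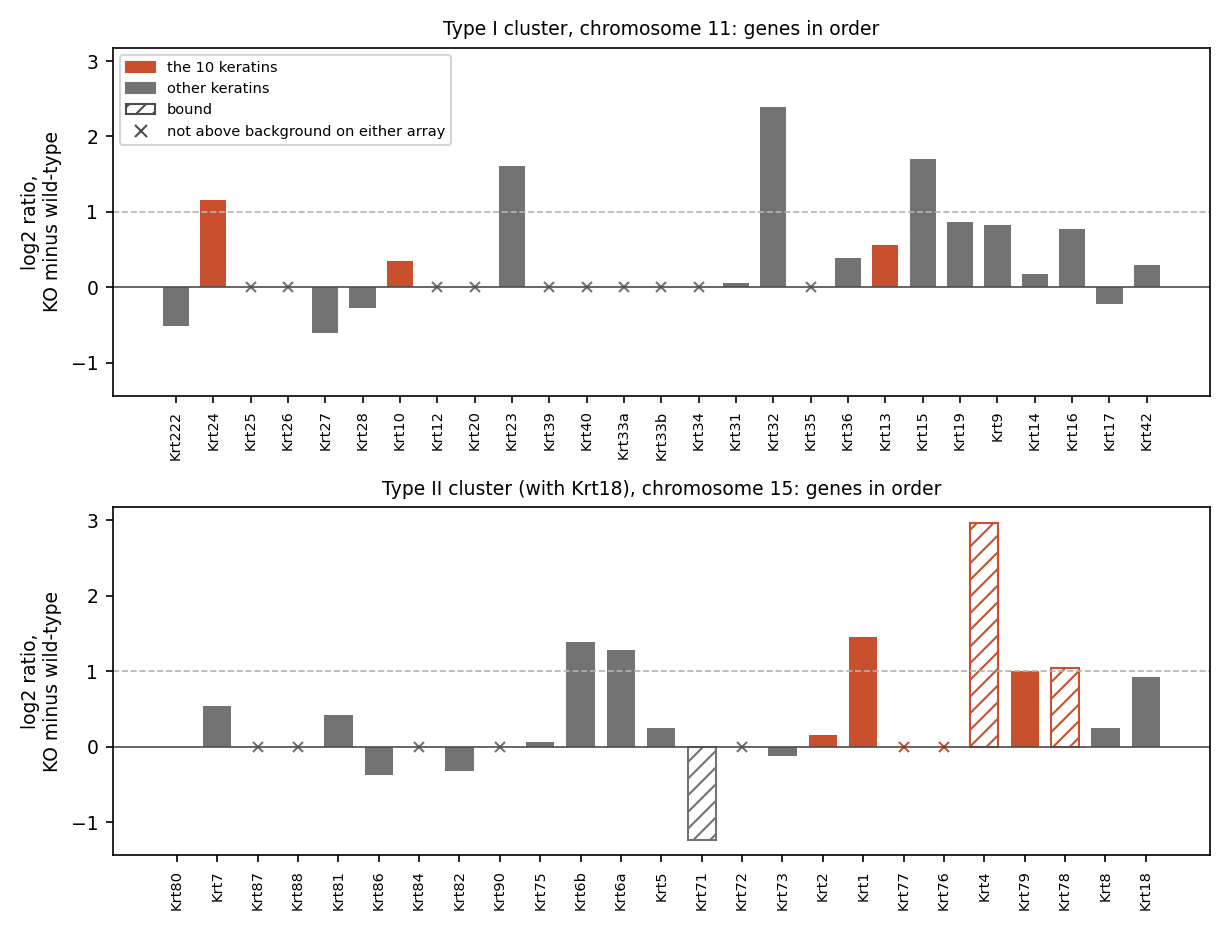
Log2 ratio (Sox21 KO minus wild-type) of the keratin genes with a probe, in order along chromosome 11 (top) and chromosome 15 (bottom), with the 10 keratins in red, the others in grey, hatched bars for bounds and crosses for genes not well above background on either array. On chromosome 15 the 7 red genes stand side by side, with bars from 0.16 for Krt2 to a bound of 2.97 for Krt4 and crosses for Krt77 and Krt76.

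The other 42 keratin genes with a probe were compared with the members. Of these, 26 were measured, with a median log2 ratio of 0.27. They ranged from -0.60 for *Krt27*, a hair inner root sheath keratin, to 2.40 for *Krt32*, a hair cuticle keratin. Of the 26, 18 were higher and 8 lower, and 5 were at least 2-fold higher. Besides *Krt32*, these were *Krt15* (log2 ratio 1.70), a keratin of basal cells, *Krt23* (1.61), *Krt6b* (1.39) and *Krt6a* (1.28), the last 2 being keratins of the hair companion layer, oral epithelium and wounded skin. *Krt71*, of the inner root sheath, was above background on the wild-type array alone and was at least 2.34-fold lower in the KO incisor. The measured members thus had the higher median, 0.78 against 0.27, but the difference between both sets has no test. On chromosome 11 the other keratins had a median of 0.34 over 14 measured genes, and on chromosome 15 of 0.25 over 12, counting *Krt18*, a type I keratin that lies beside *Krt8*.

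Genes that accompany these keratins in the upper layers of skin were read as a list of 29 genes of the suprabasal and cornified epidermis. Of the 18 measured, 15 were higher and 3 lower in *Sox21* KO, 8 were at least 2-fold higher and 0 were at least 2-fold lower, with a median of 0.77. The 8 became 5 when background was corrected with the normexp model or not removed. The highest was *Spink5*, an inhibitor of the kallikreins that shed the cornified layer, with normalized signals of 0.68 in wild-type and 2.77 in *Sox21* KO incisor (log2 ratio 2.03). The lowest was *Casp14*, a protease of the cornified layer, at -0.25. Loricrin (*Lor*), the main protein of the cornified envelope, was at 3.06 and 6.80, a log2 ratio of 1.15.

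Of this list, 4 more genes were well above background on the KO array alone. Filaggrin (*Flg*), which bundles keratin filaments in the granular layer, was at least 5.18-fold higher, and *Sprr1b*, a precursor of the cornified envelope, at least 4.91-fold. The bounds of *Klk5* and *Lce1a1* were 1.45-fold and 1.03-fold. *Flg2*, *Hrnr*, *Rptn*, *Ivl*, *Lce1b*, *Klk7* and *Abca12* were not well above background on either array. Summed over the 18 measured genes, the normalized signal was 40.6 in wild-type and 64.1 in *Sox21* KO incisor, a sum that bright probes dominate and that describes the list only. The part of adhering skin or oral epithelium in the values of this list and of the keratins was not tested.

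Of 7 genes of internal stratified mucosa, 5 were measured, of which 4 were higher and 1 lower, at a median log2 ratio of 0.24. The highest was *Tmprss11a*, an epithelial serine protease, at 0.66 in wild-type and 2.52 in *Sox21* KO incisor, a log2 ratio of 1.94. *Sprr3*, an envelope precursor of the oesophagus and mouth, was also at least 2-fold higher, with 1.59. *Crnn*, a cornification protein of the same lining, was the lowest at -0.46. *Tmprss11d* and *Tmprss11e* were well above background on the KO array alone, at least 1.78-fold and 1.59-fold higher. The summed normalized signal of the 5 measured genes was 2.12 and 4.34, a sum with the same limit. Skin and mucosal genes were thus both among those at least 2-fold higher.

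Keratin filaments end at desmosomes, the junctions that hold keratinocytes together. Of 13 desmosome and anchoring genes, 12 were measured, 9 of them higher, with a median of 0.35. *Dsg3*, a desmosomal cadherin of the lower layers and of oral mucosa, was highest at 1.26, and *Evpl* (envoplakin) lowest at -0.19. *Dsc1*, the cadherin of the upper epidermis, had no probe well above background in either genotype.

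Of 16 regulators of stratified epithelium, 14 were measured, 10 of them higher, and 0 were at least 2-fold higher or lower. The median was 0.18, from -0.65 for *Maf* to 0.74 for *Grhl3*, a transcription factor of barrier formation. Of the basal layer, 7 of 7 genes were measured, of which 4 were higher and 3 lower, at a median of 0.13. They ranged from -1.07 for *Lamb3*, a chain of laminin-332 in the basement membrane, to 1.70 for *Krt15*.

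**Figure D4:**
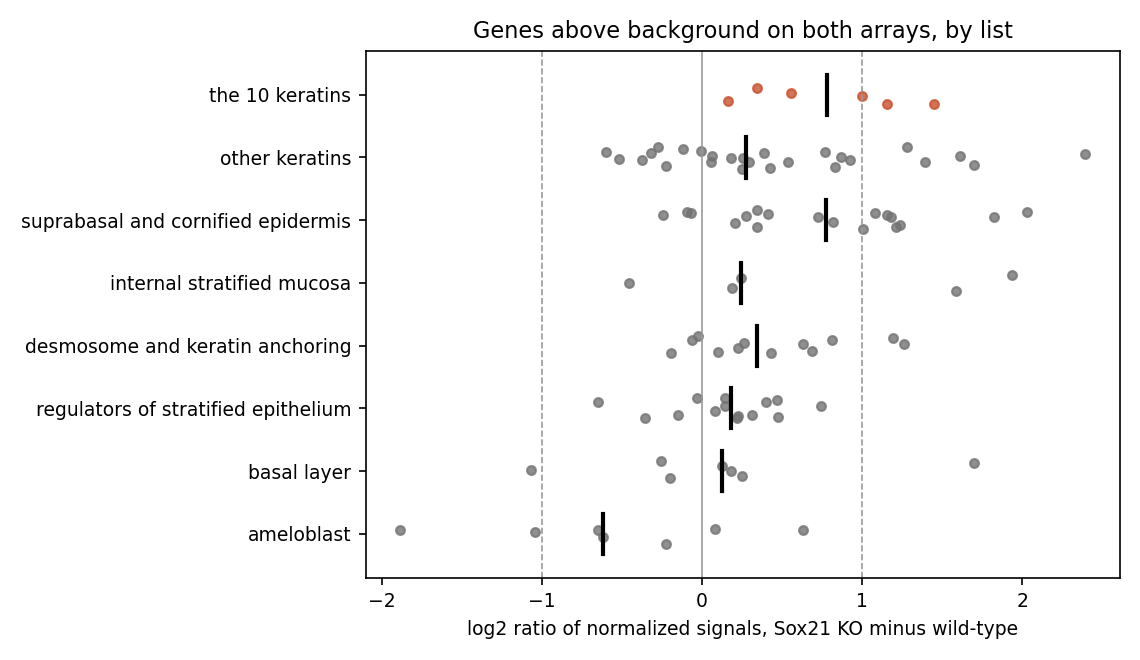
Log2 ratios (Sox21 KO minus wild-type) of the genes measured on both arrays in the 10 keratins and in 7 of the gene lists (odontoblast, general epithelial and mesenchymal genes are not drawn), with a vertical bar at the median and dashed lines at 2-fold. The median was 0.78 for the 6 measured members, 0.77 for cornified epidermis and -0.62 for ameloblast genes, and no keratin of the 6 measured members lies below 0. The odontoblast genes, not drawn, had a median of 0.79.

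The labels were set beside the signals of *Sox21* and of markers of the incisor. *Sox21* gave 1362 in wild-type and 659 in *Sox21* KO incisor at its brighter probe, a log2 ratio of -1.09, and 286 and 103 at the other, -1.51. All 4 signals were well above background, so *Sox21* signal was lower on the KO array but not lost. These signals cannot tell a full from a partial loss of the gene. Which part of the gene is deleted was not given in the sources used here, and whether the probes lie inside it could not be checked. Of 7 ameloblast genes, 7 were measured, 5 of them lower and 2 at least 2-fold lower, with a median log2 ratio of -0.62. They ranged from -1.89 for *Amtn*, a protein of maturing enamel, to 0.63 for *Odam*, and their summed normalized signal was 3162 and 2866. The 3 odontoblast genes were measured too, from -0.01 for *Dspp* to 0.93 for *Dmp1* with a median of 0.79, as were 4 general epithelial genes, from -0.09 for *Cdh1* to 0.92 for *Krt18* with a median of 0.19. The 4 mesenchymal genes had a median of 0.18, from -0.11 for *Twist1* to 0.29 for *Vim*. The part of the tissue's makeup in the values of these lists and of the keratins was not tested.

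Promoter windows from RefSeq (GRCm38.p6, from 250 bases before to 50 after the start) were held for 8 of the 10 genes, with 9 windows. The motif ACAATG, a core recognized by Sox proteins, was in 0 of these 9 windows on either strand and in 12.6% of all 32851 windows. The related ACAAAG was in 0 of 9 and in 18.7% of all. The motif TATAAA was in 2 of 9, those of *Krt10* and *Krt76*, and in 13.6% of all. These counts describe the letters in these windows only.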

How the data were processed

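The authors labelled incisor RNA with Cy3, hybridized 1 array per genotype and scanned both. Each deposited scanner table gives a processed intensity per spot, corrected for background by Feature Extraction 10.7.3.1 per the submitters' processing notes. A further table deposited by the authors holds linear ratios, that is, the processed intensity over a constant of its array. These constants, 268 and 276, lie at the 75th percentiles and held for every spot to a relative difference of 2.69e-06. The medians of the columns of ratios were 0.0756 and 0.0707, and this table served as an alternative. The filter on very low signals in the methods has no threshold given in the sources used here.

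Log2 ratios (*Sox21* KO minus wild-type) were computed per probe after division by the 75th percentile over all 62976 spots, leaving out 267 outlier spots. A gene took its brightest probe well above background on both arrays. Both arrays were well above background at close to the same share of spots, 49.7% and 50.4%, and 0 spots were saturated. Probes were named through RefSeq accessions (26292), symbols (2049) or older symbols (355), and 26983 kept the file's name. Named genes were all members and their probes, *Sox21*, the extremes and the bounds of each list, and other keratins at least 2-fold apart. *Lor*, *Sprr3*, the keratins beside or near the members and the genes of the lists that are well above background on neither array were named after their values were seen. The lists, like the members, were chosen with earlier results of these data known. At least 2-fold is a call by size, with no test. The steps were tested on simulated data. Tables were handled in Python 3.11.15 with pandas 2.3.3 and numpy 2.4.6, and the quantile and normexp (offset 50) alternatives were run with limma 3.58.1 in R 4.3.3.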

Additional observations from a re-analysis of the deposited data

How the results depend on the processing

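All 6 measured members kept a log2 ratio above 0 under all 12 alternatives, and *Krt79* reached 2-fold in 2 of them. For *Krt4* and *Krt78* the sign of the bound carries no such information, since both passed the main filter through the KO array alone. With no requirement on background and with positive and significant spots, their values, 3.63 and 1.92, are plain ratios and not bounds. The number of members at least 2-fold higher, 2, was 1 with normexp correction or with no background removed. It was 3 after scaling to the median of each array or with quantile normalization. It was 4 with no requirement on background or with spots positive and significant in place of well above background. The mean over probes, the dimmest probe and the counting of bounds each gave 4 as well. Bounds could only add to the higher members, since *Krt4* and *Krt78* passed the filter through the KO array alone. The median of members, 0.78, was 0.87 after scaling to the median of each array, 0.63 with normexp, 0.68 with no background removed, 1.08 with positive and significant spots, 1.12 with the mean over probes, 1.30 with the dimmest probe and 1.02 with bounds. The epidermal median, 0.34, was 0.44 with median scaling, 1.09 with the mean over probes and 1.45 with the dimmest probe. The mucosal value, 0.56, is that of *Krt13* alone, and was 0.65 with median scaling, 1.25 with the mean over probes and 1.94 with the dimmest probe. Other settings brought in other genes. The median was 1.29 with no requirement, which takes in *Krt76* over a surrogate value in wild-type and has no weight, and 1.92 with positive and significant spots and 1.05 with bounds, both of which are values of *Krt78*, a gene that passed the main filter through the KO array alone. At 1.5-fold, 3 members and 9 other keratins were called higher, against 2 and 5 at 2-fold. The cornified epidermis count, 8, was 5 with normexp and 5 with no background removed. *Sox21* was at -0.99 with median scaling, -1.30 with the mean over probes and -1.51 with the dimmest. The dimmest probe and the bounds of members were chosen after seeing the data.

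Median scaling moved the median of all genes from 0.01 to 0.11, and the share of 2-fold calls that were higher from 52.6% (102 higher, 92 lower) to 68.2% (135 and 63). Without a requirement on background it was 42.2% (508 and 695). With positive and significant spots 293 genes were higher and 321 lower, with normexp 46 and 40, and with no background removed 53 and 49. Apart from the changes of probe, filter or background named here, the cause was not tested. No paired analysis was possible because each genotype has 1 array, and for the same reason no array could be left out. Signal over background limits *Krt76*, *Krt77* and the second *Krt2* probe, which have no ratio.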
